A study of Mus musculus with 6 samples.

Results

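P38 MAP kinases pass their signal on through a second tier of kinases and through transcription factors that they phosphorylate directly. The genes described here are the 5 MAPK-activated kinases and stress kinases Mapkapk2, Mapkapk3, Mapkapk5, Rps6ka4 and Rps6ka5, the translation kinases Mknk1 and Mknk2, and the transcription factors Mef2c, Mef2d and Atf2. They were chosen by name, as every probe outside the array's control spots that the scanner files assign to 1 of these 10 genes, which gave 18 of 55681 probes. P38 acts on these proteins by phosphorylation, whereas the arrays measured mRNA, so the values below say how much transcript was present and nothing about the activity of the proteins.

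The arrays were hybridized with RNA from CD71 high Ter119+ bone marrow erythroblasts, the immature red cell precursors, of 3 P38α+/− and 3 P38α−/− mice on a C57Bl/6 background. Both genotypes carried Mx1-Cre, with 1 floxed P38α allele in the P38α+/− mice and both alleles floxed in the P38α−/− mice, and both received 300 µg PolyIC 3 times at 6 to 8 weeks of age, 6 weeks of rest and then 100 mg/kg phenylhydrazine, which lyses red cells. Cells were sorted on day 4 of the recovery from anemia. Mx1-Cre responds to interferon in many tissues and is not restricted to erythroid cells, and the controls are heterozygous rather than wild type.

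Mapk14, which encodes P38α, was read by 2 probes, and neither was lower on the arrays labelled P38α−/−. On the brighter probe the log2 signal relative to the array's percentile was 0.33, 0.58 and 0.61 on the P38α+/− arrays and 0.76, 1.19 and 1.20 on those labelled P38α−/−, a difference of 0.54 (SE 0.19, limma adjusted p = 0.186). The dimmer probe differed by 0.01 (SE 0.42, adjusted p = 0.991). The sources used here do not place the probes inside or outside the deleted sequence, so Mapk14 gave no check of the labels, and the genotype is called by its label throughout. Apart from the arrays, the paper reports an excised P38α locus and complete loss of the protein in sorted P38α−/− erythroblasts after PolyIC. All 10 erythroid markers were well above background on every array, among them Klf1 and Gata1. From 36.9% to 53.1% of all probes cleared background on the P38α+/− arrays, against 28.9% to 35.9% on those labelled P38α−/−.

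The probes printed here were chosen because the results turn on them: the Atf2 probe with the largest difference of that gene, the Mef2d probe with the largest difference of that gene, and the brighter probe of Mapkapk5, the gene with the least spread between arrays. Each is a 60-base oligonucleotide, given 5′ to 3′ as in the scanner files with no base marked, and coordinates are those of the files on mm9.
Atf2, chr2:73684290-73684349, minus strand: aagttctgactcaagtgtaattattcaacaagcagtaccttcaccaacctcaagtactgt
Mef2d, chr3:87972214-87972560, plus strand: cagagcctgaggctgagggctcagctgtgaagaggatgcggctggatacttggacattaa
Mapkapk5, chr5:121975673-121975732, minus strand: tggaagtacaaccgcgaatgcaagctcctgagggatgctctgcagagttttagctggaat
The Mef2d probe covers 347 bases of the genome with 60 bases of sequence, so it reads across an intron and matches spliced mRNA. The Mef2c probe is built the same way, over 2238 bases. The other 16 member probes each lie in 1 unbroken stretch of 60 bases.

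None of the 10 genes passed the test between genotypes (limma with Benjamini-Hochberg adjustment over 18785 tested probes, adjusted p of at most 0.05 and at least 2-fold). Of all tested genes, 27 of 14158 passed, or 0.191%, and 0 of 10 does not stand apart from that share. Of the 18 member probes, 17 were tested as 1 genotype or both had them clear of background on its 3 arrays, and 15 of them were clear on all 6. An unadjusted limma p of at most 0.05 was reached by 7 of the 17, against 20.9% of all tested probes. These 7 were probes of Mef2d, Atf2 and Mapkapk3 only, and probes of 1 gene are not independent. The genotypes did not overlap on 3 member probes that were higher, all of Mef2d, and 7 that were lower on the arrays labelled P38α−/−. Among all tested probes 6.93% were separated upwards and 20.8% downwards. By the brightest tested probe of each of the 10 genes, 3 reached that p, 1 was separated upwards and 4 downwards. The median log2 difference over all tested probes was −0.16, and differences relative to it are given where they change the reading.

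**Figure D1:**
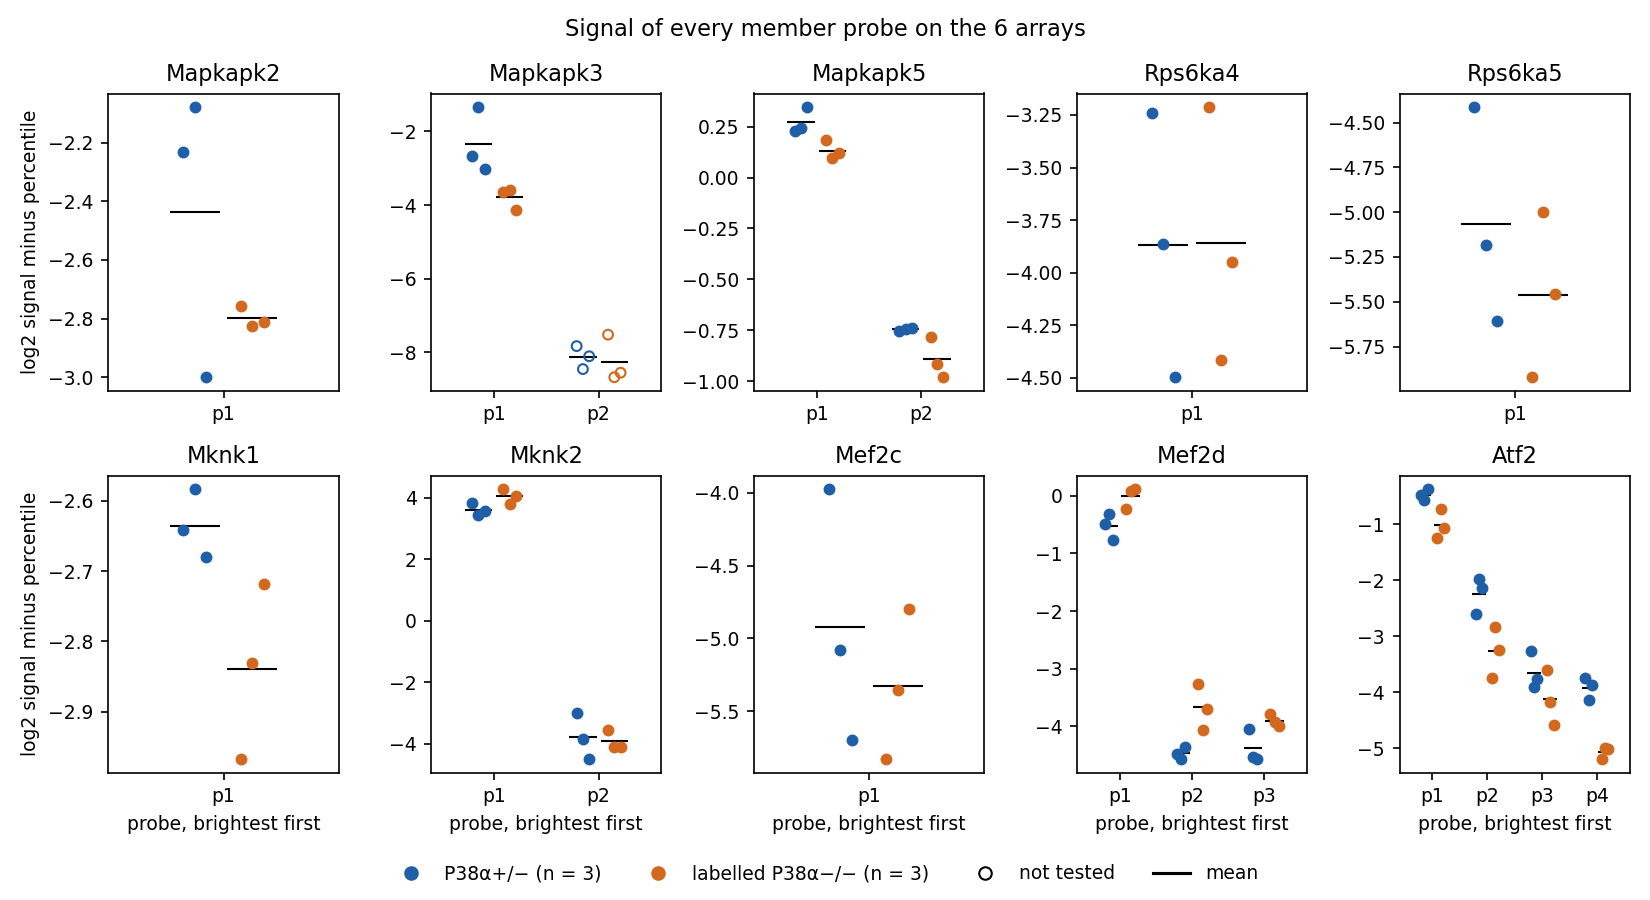
Log2 signal minus the array's 75th percentile (y axis, its own range in each panel) of every member probe, with probes ordered from the brightest within each gene. Points are single arrays, blue for P38α+/− and orange for the arrays labelled P38α−/−, lines are means of 3, and open points mark the probe that was not tested. All 3 Mef2d probes are higher and 3 of the 4 Atf2 probes are lower on the arrays labelled P38α−/− without overlap.

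Among the transcription factors, Atf2 was lower on all 4 of its probes and Mef2d higher on all 3. Atf2 encodes a basic leucine zipper factor that binds cyclic AMP response elements and is activated by P38 and JNK. Its dimmest probe, the one printed above, gave −3.74, −4.15 and −3.87 on the P38α+/− arrays and −5.20, −5.00 and −5.01 on those labelled P38α−/−. The genotypes lay well apart on it, and the log2 difference was −1.15 (SE 0.17, 95% interval −1.56 to −0.74, adjusted p = 0.0682), a 2.22-fold lower signal. The second Atf2 probe in brightness gave −2.60, −1.98 and −2.15 against −3.75, −2.83 and −3.24. It differed by −1.03 (SE 0.29, adjusted p = 0.144), again without overlap.

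The brightest Atf2 probe, which lies farthest along the gene, showed a smaller difference. It gave −0.48, −0.57 and −0.37 on the P38α+/− arrays and −1.25, −0.73 and −1.07 on those labelled P38α−/−, a log2 difference of −0.54 (SE 0.18, adjusted p = 0.183). On the remaining probe the values were −3.27, −3.92 and −3.77 against −3.60, −4.17 and −4.59, which overlapped, with a difference of −0.47 (adjusted p = 0.422). In transcript order on the minus strand the 4 differences were −1.15, −0.47, −1.03 and −0.54, with no steady trend along the gene. The printed probe ranged from −1.27 to −0.52 over the 18 alternative analyses, the smallest difference being that with normexp background correction, and passed both thresholds in 2 of them. With only probes well above background on all 6 arrays its adjusted p was 0.0478, and with array weights it was 0.0335.

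Mef2d encodes a MADS-box factor that P38 phosphorylates in its activation domain, and it is expressed in many tissues. Its brightest probe gave −0.48, −0.32 and −0.76 on the P38α+/− arrays and −0.22, 0.08 and 0.12 on those labelled P38α−/−. The difference was 0.51 (SE 0.19, 95% interval 0.06 to 0.97, adjusted p = 0.200), and relative to the median probe it was 0.67. The intron-spanning probe printed above gave −4.48, −4.57 and −4.36 against −3.26, −4.06 and −3.70. This was the largest positive difference among the members, 0.80 on the log2 scale (SE 0.23, 95% interval 0.24 to 1.35, adjusted p = 0.150), but it did not pass the test. Its remaining probe differed by 0.48 (SE 0.20, adjusted p = 0.231), with −4.04, −4.54 and −4.58 against −3.78, −3.93 and −4.00. No alternative analysis turned the sign of any Mef2d probe, and the range over the 3 probes was 0.33 to 1.43. With slide as a block, which leaves out the 1 array on the second slide, the printed Mef2d probe differed by 0.81 and the printed Atf2 probe by −1.18 (adjusted p = 0.346 and 0.240).

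Mef2c, the relative of Mef2d known from muscle, lymphoid and megakaryocytic cells, was dim and variable. It gave −3.97, −5.08 and −5.70 on the P38α+/− arrays and −5.83, −5.36 and −4.80 on those labelled P38α−/−, on which it was well above background in 2 of 3. The genotypes overlapped, and the interval of the difference, −1.57 to 0.75 around −0.41 (adjusted p = 0.672), did not exclude a 2-fold change in the downward direction. Its spread within genotypes was larger than that of 90.5% of tested probes. The log2 of the summed signal of 8 B cell markers, a lineage that uses Mef2c, was 0.28, 0.65 and −2.17 against −1.54, −1.85 and −2.59. Only 2 of these 8 markers were well above background on all 6 arrays. The part of B cells in the Mef2c signal was not tested.

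**Figure D2:**
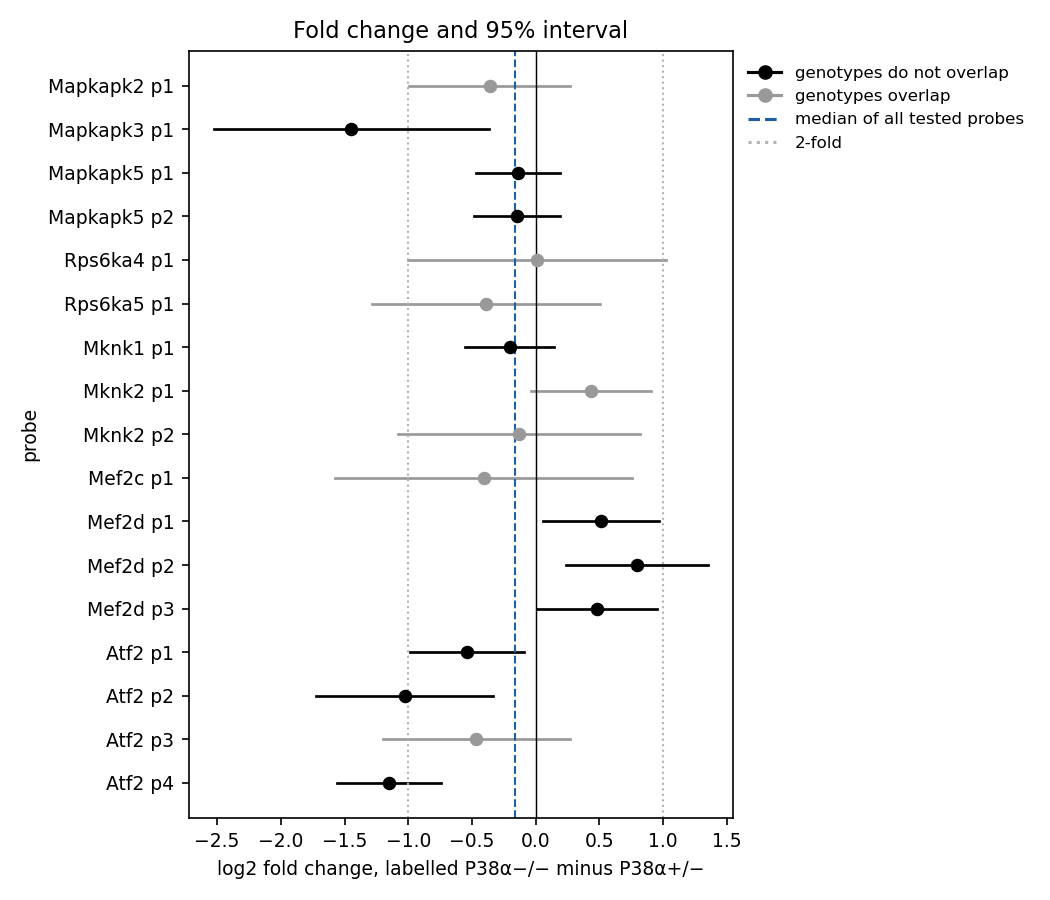
Log2 fold change of each tested member probe (x axis, arrays labelled P38α−/− minus P38α+/−, 3 arrays each) with its 95% interval from limma, not adjusted for multiple tests. Black marks probes whose genotypes do not overlap, the dashed line is the median of all tested probes (−0.16) and the dotted lines are 2-fold. The Mef2d intervals lie above 0 and 3 of the 4 Atf2 intervals below it.

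The MAPK-activated kinases divided by gene. Mapkapk2 encodes MK2, which P38α activates and which controls the stability and translation of mRNAs with AU-rich elements. It gave −2.23, −2.08 and −3.0 on the P38α+/− arrays and −2.76, −2.83 and −2.81 on those labelled P38α−/−. The third P38α+/− array lay below all of the latter, so the genotypes overlapped, and the difference was −0.36 (SE 0.26, 95% interval −0.99 to 0.27, adjusted p = 0.471). The 3 genes whose brightest tested probe followed Mapkapk2 most closely over the 6 arrays were H2-K1 (Pearson r = 0.995), H2-Bl (0.993) and Matk (0.993), out of 14148 genes ranked. These correlations describe 6 arrays that share their normalization and carry no test.

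Mapkapk3 encodes MK3, a close relative of MK2 with overlapping substrates. Its tested probe gave −2.67, −1.34 and −3.01 on the P38α+/− arrays and −3.63, −3.59 and −4.14 on those labelled P38α−/−. The genotypes did not overlap, and the difference of −1.45 (SE 0.45, 95% interval −2.53 to −0.36, adjusted p = 0.158) was the largest of any member as reported here. Over the 18 alternatives it ranged from −1.96 to −0.94 and was called in none. The smallest value was that without P38α+/− replicate 2, the highest array, where the printed Atf2 probe differed by more, −1.27. The second Mapkapk3 probe did not clear background on a single array and was not tested.

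Neutrophil markers moved with this gene, and the summed marker signals of several other lineages were lower too. All 9 were well above background on every array, 7 of the 9 were lower without overlap on the arrays labelled P38α−/−, and the log2 of their summed signal, which is weighted to the markers with the strongest signal, was 7.52, 8.15 and 6.89 on the P38α+/− arrays against 6.48, 6.51 and 6.09. The order of the 6 arrays was the same for Mapkapk3 and the neutrophil sum, from P38α+/− replicate 2 at the top to the array labelled P38α−/− replicate 3 at the bottom. The log2 of the summed signal of the 8 monocyte or macrophage markers, of which Mrc1 was not detected, was 0.30, 0.68 and −0.58 against −0.34, −0.74 and −1.29. The mean difference of such sums was −1.16 for neutrophil, −0.93 for monocyte or macrophage, −1.58 for B cell and −0.86 for T or NK cell markers. It was −0.03 for erythroid and 0.33 for megakaryocyte or platelet markers. On all 6 arrays, 2 of the 8 B cell and 4 of the 8 T or NK cell markers were well above background. The T or NK cell sum is weighted to Nkg7, which differed by −1.67 without overlap. Cd3e (−0.32), Cd4 (−0.17) and Lck (−0.07) overlapped between genotypes, so that sum does not show T cell markers lower as a group. The part of any of these cells in the Mapkapk3 difference was not tested. In sorted bulk RNA fewer cells of a type and less RNA per cell cannot be told apart.

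**Figure D3:**
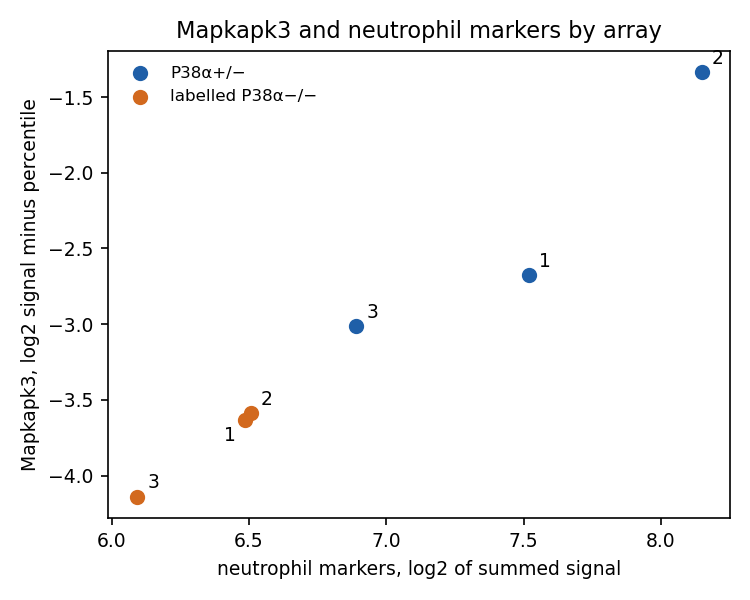
Mapkapk3 log2 signal minus the array's percentile (y axis) against the log2 of the summed signal of 9 neutrophil markers (x axis) on the 6 arrays, labelled by replicate number. The 3 arrays labelled P38α−/− are lowest on both axes, and P38α+/− replicate 2 is highest on both.

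Mapkapk5, which encodes MK5 (PRAK), had the narrowest spread of the members. The brighter probe gave 0.23, 0.24 and 0.35 on the P38α+/− arrays and 0.18, 0.10 and 0.12 on those labelled P38α−/−, and the dimmer one −0.75, −0.74 and −0.74 against −0.78, −0.91 and −0.98. Neither pair of groups overlapped, but the differences were −0.14 (95% interval −0.47 to 0.19, adjusted p = 0.602) and −0.15 (−0.48 to 0.19, adjusted p = 0.588). Relative to the median of all tested probes they were 0.02 and 0.01. A 2-fold change lay outside both intervals, and with centring on all probes or on the spike-in spots the sign of both probes turned.

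Rps6ka4 and Rps6ka5 encode MSK2 and MSK1, nuclear kinases that phosphorylate histone H3 and CREB. Rps6ka4 gave −3.24, −3.86 and −4.50 on the P38α+/− arrays and −3.21, −4.41 and −3.95 on those labelled P38α−/−, a difference of 0.01 (SE 0.42, 95% interval −1.0 to 1.02, adjusted p = 0.993). Rps6ka5 gave −4.41, −5.19 and −5.61 against −5.92, −5.00 and −5.46 and was well above background on 2 of the 3 arrays labelled P38α−/−. Its difference was −0.39 (SE 0.37, adjusted p = 0.589). Both genes overlapped between genotypes, and neither interval excluded a change close to 2-fold.

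Mknk1 and Mknk2 encode the MNK kinases, which phosphorylate the cap-binding protein eIF4E. Mknk1 gave −2.64, −2.58 and −2.68 on the P38α+/− arrays and −2.97, −2.83 and −2.72 on those labelled P38α−/−. The groups did not overlap, but the difference of −0.20 (95% interval −0.55 to 0.15, adjusted p = 0.463) was −0.04 relative to the median probe. The brighter Mknk2 probe gave 3.83, 3.46 and 3.56 against 4.29, 3.79 and 4.07. It was higher by 0.44 (SE 0.19, 95% interval −0.03 to 0.90, adjusted p = 0.264), with 1 array of each genotype overlapping, and kept its sign in all 18 alternatives. The dimmer Mknk2 probe, designed on another transcript, gave −3.01, −3.85 and −4.50 against −3.55, −4.11 and −4.09, with a difference of −0.13 (adjusted p = 0.881) and overlapping genotypes.

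A scaling factor cancels when 2 probes of the same array are subtracted. The difference between members was therefore also taken within each array, by the brightest tested probe of each gene. All pairs but Mef2d and Atf2 are relatives. These pairs were formed after the values were seen and carry no test, and the differences are informative only between genotypes, not as levels. Mknk2 minus Mknk1 was 6.47, 6.04 and 6.24 on the P38α+/− arrays and 7.26, 6.62 and 6.79 on those labelled P38α−/−, a shift of 0.64 without overlap. Mapkapk3 minus Mapkapk2 shifted by −1.08, from −0.44, 0.74 and −0.01 to −0.88, −0.76 and −1.33. Mef2d minus Atf2 shifted by 1.05, from 0.00, 0.25 and −0.39 to 1.03, 0.81 and 1.19. Those 2 probes were already separated in opposite directions, so their difference had to separate and adds nothing to them. The MSK pair and the MEF2 pair overlapped between genotypes, with shifts of −0.40 and 0.92.

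**Figure D4:**
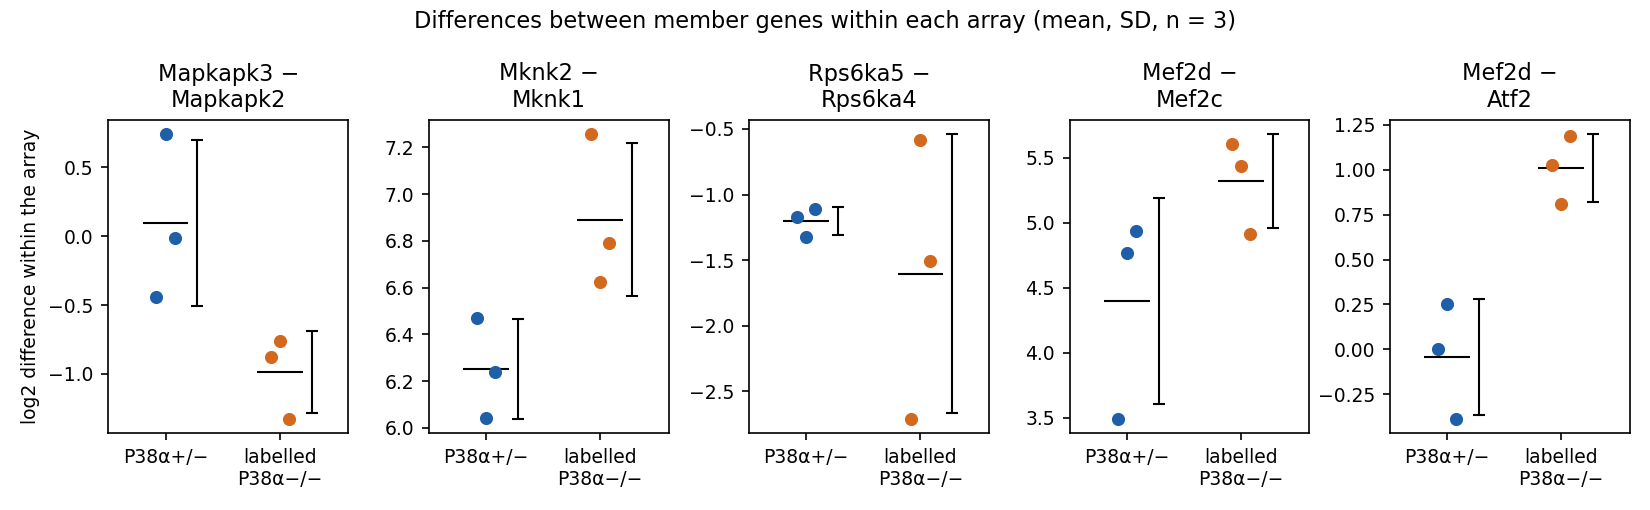
Log2 difference between 2 member genes within each array (y axis, its own range in each panel), with the mean and SD of 3 arrays per genotype. The genotypes separate for Mapkapk3 minus Mapkapk2 and Mknk2 minus Mknk1, and overlap for the MSK and MEF2 pairs. They also separate for Mef2d minus Atf2, which follows from the opposite separation of the 2 probes.

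Genes around these members in the pathway were taken by the brightest tested probe of each. None was called in any list, against 0.191% of all tested genes. Counts of separated genes stand beside 6.93% of all tested probes separated upwards and 20.8% downwards. Of the 4 P38 MAP kinases 2 were tested, Mapk14 and Mapk13, with Mapk11 and Mapk12 not well above background. Of the 10 relatives of the members 7 were tested. By the brightest probe Atf1, another cyclic AMP response element factor, was the only one separated between genotypes, at −0.49 (SE 0.20, adjusted p = 0.239). The files place that Atf1 probe on chromosome X and the other Atf1 probes on chromosome 15, where the tested one overlapped between genotypes (−0.39, SE 0.23, adjusted p = 0.378), so the Atf1 separation is uncertain. The brightest probe of the relative Rps6ka3 overlapped between genotypes (−0.31, SE 0.22, adjusted p = 0.468). Dimmer tested probes of Rps6ka3 were separated, at −1.30 (SE 0.57, adjusted p = 0.256) and −0.78 (SE 0.24, adjusted p = 0.155). Each was well above background on 3 P38α+/− arrays and on 2 labelled P38α−/−. They entered the test through the genotype where they were higher, so their separation is not used as support. Of the 15 RNA-binding and translation targets of MK2 and MNK 12 were tested. By the brightest probe only Hnrnpa0, a ribonucleoprotein that MK2 phosphorylates, was separated, at −0.47 (SE 0.18, adjusted p = 0.221). Dimmer probes of Eif4e (−0.60, adjusted p = 0.219) and Sfpq (−0.54, adjusted p = 0.195) were also separated. The brightest probes of Eif4e (−0.19) and Sfpq (0.01) overlapped between genotypes. The median log2 difference of those 12 genes by the brightest probe was −0.01, against −0.16 for all tested probes and −0.28 for the 10 members.

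Of the 22 other direct P38 targets 17 were tested, 1 of them separated upwards and 3 downwards by the brightest probe. These counts are near the shares over all tested probes, 6.93% upwards and 20.8% downwards. A dimmer Eef2k probe was separated too, at −0.37 (SE 0.14, adjusted p = 0.205). The brightest Eef2k probe (−0.09) and another dimmer one (0.20) overlapped between genotypes. Cebpb, a transcription factor of myeloid differentiation, gave −2.68, −1.72 and −2.28 on the P38α+/− arrays and −3.57, −3.83 and −3.50 on those labelled P38α−/−, a difference of −1.41 (SE 0.27, adjusted p = 0.0889). The neutrophil sums given above were lower on the same 3 arrays, and their part in the Cebpb difference was not tested. Elk4, a ternary complex factor, differed by −0.49 (SE 0.16, adjusted p = 0.180), and Ezh2, the methyltransferase of the polycomb repressive complex, by −0.43 (SE 0.18, adjusted p = 0.247). For Ezh2 the paper reports more protein in P38α−/− erythroblasts, which an mRNA value does not measure.

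**Figure D5:**
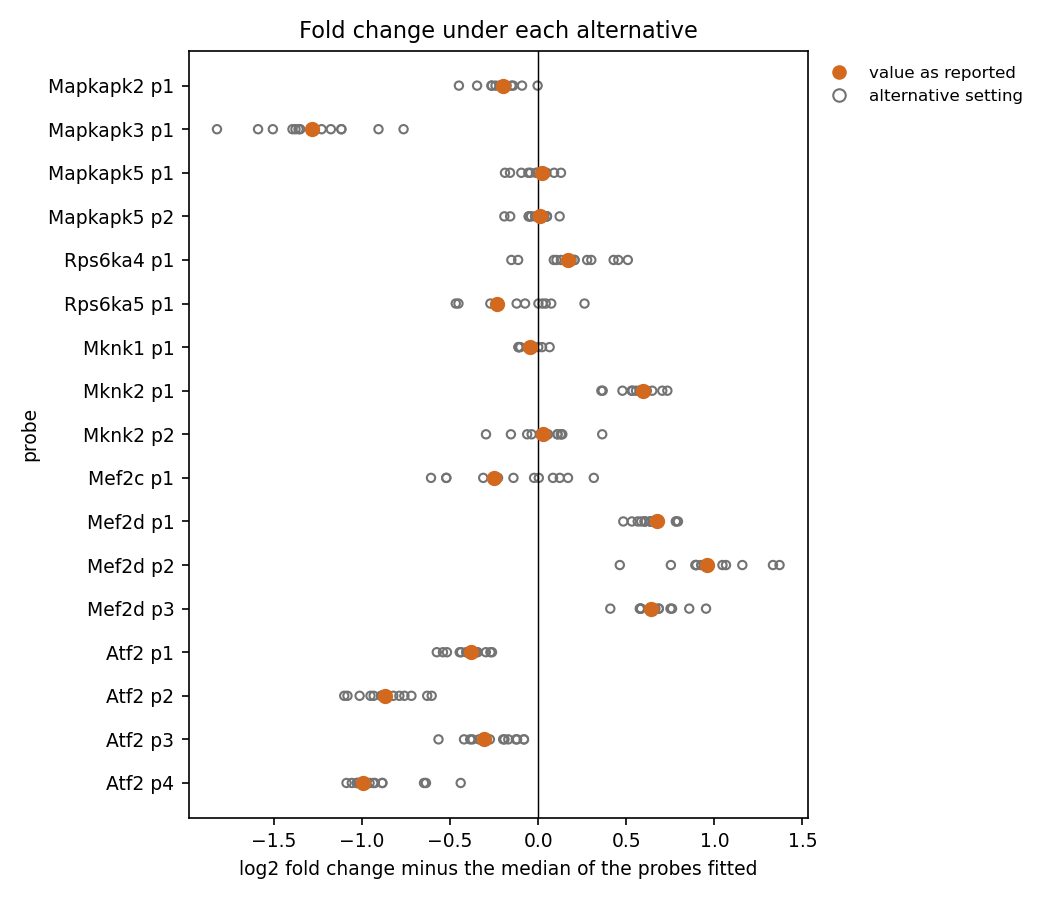
Log2 fold change of each tested member probe minus the median over the probes fitted (x axis), as reported (orange) and under each alternative analysis (open circles). Mapkapk3 and Atf2 stay below 0 and Mef2d and the brighter Mknk2 probe above 0 in all of them, while Mapkapk5, Mknk1, Mef2c and the MSK genes lie on both sides.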

How the data were processed

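Cy3-labelled cRNA from 10 ng of total RNA per mouse was hybridized to Agilent 1-colour arrays, 1 array per mouse, 3 per genotype. The authors deposited scanner intensity values from Agilent Feature Extraction 10.7.3.1 with probe positions on mm9, and a table of normalized intensity values, whose scale and centring are not given in the sources used here. For the array labelled P38α−/− replicate 2 the normalized values followed the scanner values less closely (Spearman 0.898) than for the others (at least 0.9999). Genotypes were taken from the sample labels. Control spots and outlier spots were left out, spots of a probe were averaged, and log2 processed signal was centred, per array, on the 75th percentile of 15540 probes that cleared background on each of the 6 arrays. A probe counted as well above background on an array if at least 50% of its spots were. A stricter reading, every spot, was also run after the results of the first were seen.

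Probes were tested with limma 3.58.1 in R 4.3.3. The code was also run on simulated arrays with independent noise. These lacked the correlation between same-numbered arrays given below, so they say nothing of error rates under it. Precision is limited by the number of arrays, and an exact permutation test of 3 against 3 cannot go below p = 0.10. All probes of the members are described. Of the other pathway genes those named were called genes, Mapk14 and, per list, the 3 largest differences without overlap by the brightest probe. Rps6ka3, Eif4e, Sfpq and Eef2k are named for separated dimmer probes. The members and lists were chosen with earlier results of these data known. Same-numbered arrays deviated together (r = 0.54, 0.31 and 0.42, other pairs at most 0.18), and the series' own design speaks of pairs, so the replicate number was used as a block in an alternative. Array labelled P38α−/− replicate 3 lay alone on the second slide.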

Additional observations from a re-analysis of the deposited data

How the results depend on the processing

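None of the 10 members was called in the reported analysis, and this held in 15 of 18 alternatives. With the percentile over all probes 1 member was called (Mef2d, adjusted p = 0.0392), with only probes well above background on all 6 arrays 1 (Atf2), and with array weights 1 (Atf2) and 1 other pathway gene (Cebpb). Leaving out each array in turn gave 0 members and 0 to 102 genes overall. With the replicate block 0 members and 62 genes were called in place of 27, with 26.6% of called probes higher in place of 75%, and the pairing changed no call among the members. Requiring every spot of a probe above background, chosen after seeing the data, gave 0 members and 27 genes. Overall counts were 730 with the percentile over all probes (58.1% of probes higher), 15 with quantile normalization (93.3%), 8 with spike-in centring (25%), 12 with normexp (100%), 64 with the stricter filter, 11 with the deposited normalized values (100%), 474 with array weights (34.2%), 2 with the methods' t-test and 0 with no filter or the slide block. The median of all probes moved from −0.16 to 0.32, 0.06 and 0.01 with the first 3 of these scalings.

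Of 305 alternative values for member probes 23 turned sign. The percentile over all probes and the spike-in centring move every probe of an array by the same amount, so sign turns there follow from the centring. Relative to the median probe, the brighter Mapkapk5 probe stayed at 0.02 under both. For the other settings the cause was not tested. With the percentile over all probes the values that turned were Atf2 (the overlapping probe) 0.014, Mapkapk2 0.12, Mapkapk5 0.34 and 0.33, Mef2c 0.073, Mknk1 0.28, Mknk2 (dimmer probe) 0.35 and Rps6ka5 0.091. Quantile normalization gave Mef2c 0.18, Mknk1 0.021, Mknk2 0.19 and Rps6ka5 0.32. The deposited values gave Mef2c 0.38, Mknk1 0.034 and Rps6ka5 0.14. Spike-in centring gave Mapkapk5 0.027 and 0.019 and Mknk2 0.034. Array weights gave Rps6ka4 −0.044. Leaving out 1 array moved Mef2c between −0.80 and 0.063 and the dimmer Mknk2 probe between −0.49 and 0.26, both highest without P38α+/− replicate 1, and Rps6ka4 reached −0.31 without P38α+/− replicate 3 and without the array labelled P38α−/− replicate 1.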
